A study of Homo sapiens with 58 samples.

Results

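SOX9 is a transcription factor of the SRY-related HMG box family that cranial neural crest cells (CNCCs) need to form the cartilage and bone of the face. Its HMG domain bends DNA at short A/T-rich sites, and SOX9 can bind as a dimer where a pair of such sites face each other. Loss of a single SOX9 copy causes campomelic dysplasia, and lesions of distant SOX9 enhancers are found in Pierre Robin sequence, so the step from full to near heterozygous dosage is of clinical interest. The comparison described here asked which regulatory elements (REs) change accessibility at that step.

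The 14 samples compared were ATAC-seq libraries, in which the Tn5 transposase inserts adapters into open chromatin, from CNCCs grown out of the embryonic stem cell line H9, an established human line. They are 14 of the 58 samples of the series, chosen by the concentration in their titles: 7 at 1.6 nM dTAGV-1, where the labels put SOX9 at 51.7% of its full level, and 7 at 0 nM. All 14 carry the FKBP12-F36V degradation tag on endogenous SOX9 and were collected after 48 h. dTAGV-1 is a small molecule that brings a ubiquitin ligase to the tag. The 7 replicates on each side come from 2 edited clones, 3 from S9CC47 (R5, R6, R8) and 4 from S9CC13 (R6, R10, R13, R14), spread over 6 differentiation batches, so each clone stands for 1 editing event. Other SOX9-tagged doses (0.5, 5, 16 and 500 nM), a 3 h treatment of SOX9-tagged cells with 500 nM, and untagged wild-type (WT) cells at 0 and 500 nM are used below only to describe the same REs. The 3 h and WT groups held 2 replicates each. The 3 h samples were compared with vehicle samples of the same time course, collected at 24 h.

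The 14 libraries held from 31.6 to 67.3 M counts (M, mega) in 151457 REs. Levels are given in CPM, counts scaled to a common library size (TMM). Promoter REs of the neural crest markers TFAP2A, TWIST1, NR2F1, PRRX1, ALX1, SNAI2 and PDGFRA, 16 REs in all, summed to between 557 and 724 CPM at 0 nM and between 561 and 705 CPM at 1.6 nM. None of them was called at 1.6 nM. Promoter REs of pluripotent cells summed to between 31.4 and 63.8 CPM at 0 nM and between 31.7 and 63.1 CPM at 1.6 nM, for 3 of 5 markers that had such an RE. The same sums ran from 52.7 to 78.2 and from 58.2 to 79.9 CPM for neural progenitors (4 of 4 markers), and from 17.0 to 21.4 and from 17.0 to 22.0 CPM for epithelium (2 of 3). Muscle (1 of 2) ran from 5.15 to 8.02 and from 5.17 to 8.92 CPM, and blood (1 of 2) from 5.59 to 7.40 and from 5.54 to 6.82 CPM. No promoter RE of any of these marker lists was called at 1.6 nM.

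At 1.6 nM, 1425 REs were less accessible than at 0 nM and 133 were more accessible (edgeR quasi-likelihood test with replicate as block, Benjamini-Hochberg adjusted p under 0.05). These are 0.941% and 0.0878% of the REs tested. The log2 fold changes were small. Among the REs that fell they ran from -1.39 to -0.15 with a median of -0.42, which is 0.750 of the level at 0 nM, and 6 lay below -1. Among the REs that rose they ran from 0.15 to 0.81 with a median of 0.36. The median over all REs was -0.00247. Within replicates, 936 of the 1425 lower REs had the lower value at 1.6 nM in all 7, and 89 of the 133 higher REs had the higher value in all 7. In 13 of the lower REs and none of the higher REs, the 2 groups of CPM values did not overlap, against 24 of all REs. The groups thus overlapped in nearly every called RE. Over all REs, 5100 (3.37%) had the same direction in all 7 replicates. The called REs were chosen on these samples with replicate as block, so their agreement within replicates is partly built in.

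**Figure D1:**
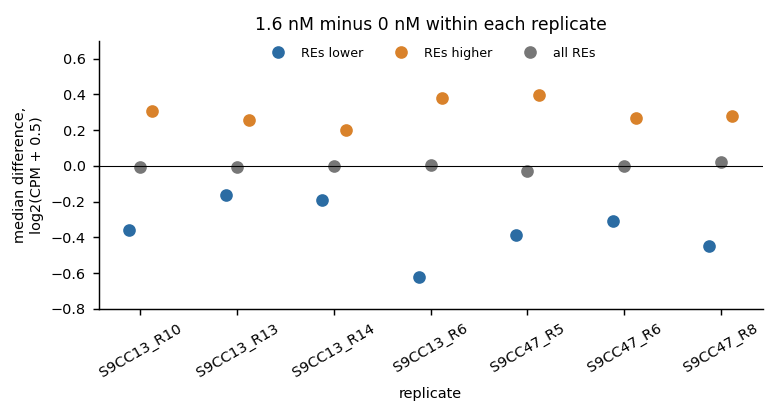
Median difference in log2(CPM + 0.5) between 1.6 nM and 0 nM (y axis) within each of the 7 replicates (x axis), for the 1425 lower REs, the 133 higher REs and all REs. The lower REs span -0.62 in S9CC13_R6 to -0.17 in S9CC13_R13, while the medians over all REs stay between -0.03 and 0.02. The called REs were chosen on these samples.

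The size of the change differed between replicates. The median difference over the lower REs was -0.62 in S9CC13_R6, -0.45 in S9CC47_R8, -0.39 in S9CC47_R5, -0.36 in S9CC13_R10, -0.31 in S9CC47_R6, -0.19 in S9CC13_R14 and -0.17 in S9CC13_R13. For S9CC13_R14, the concentration labels of the 0 and 0.5 nM samples are crossed against their titles, which were followed, so its value depends on that choice. With these samples exchanged, 1548 lower and 97 higher REs were called. Without S9CC13_R6, 440 lower and 18 higher REs were called. The count rests on the pairing of replicates. With differentiation batch in place of replicate, 58 lower and 0 higher REs passed, with 7809 at an unadjusted p under 0.05, and DESeq2 with that same design called 353 lower and 5 higher. No RE differed in its response between the clones in the interaction test (5618 REs at an unadjusted p under 0.05 by edgeR, 1595 by DESeq2, which also called 0).

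Sequences of named lower REs are shown first, because SOX sites recur in the lower REs. The motif searched as a single core was ACAATG or ACAAAG on either strand. A facing pair was ACAA followed by 7 to 9 bases and TTGT, which reads alike on both strands and often overlaps single cores. The spacing was chosen after looking at REs that fell at 3 h in this series. A facing pair was present in 362 of the 1425 lower REs (25.4%), in 4 of the 133 higher REs (3.01%) and in 5816 of all REs (3.84%). At least 1 single core was present in 81.8%, 51.9% and 49.6%. In REs lower at 3 h but not called at 1.6 nM, that share was 77.0%, near the share in the lower REs. Of the 45 named lower REs, 11 held a facing pair, among them 4 of the 10 with the lowest fold changes. The windows below, from 9 of these 11, come from hg38, plus strand, and hold the facing pair nearest the middle of the RE, with ACAA and TTGT in capitals. They are from AGPAT4 (chr6:161318630-161318693), TAF1B (chr2:9896452-9896516), DNAH14 (chr1:224879721-224879783), SIRPA (chr20:1828156-1828219), SLC6A19 (chr5:1183321-1183384), KATNIP (chr16:27718858-27718920), TFAP2B (chr6:51350031-51350095), BMP2 (chr20:6975426-6975489) and AXIN2 (chr17:65519701-65519764).
AGPAT4 RE: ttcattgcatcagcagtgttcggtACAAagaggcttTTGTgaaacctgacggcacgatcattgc
TAF1B RE: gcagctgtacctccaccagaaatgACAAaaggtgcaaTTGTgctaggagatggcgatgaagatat
DNAH14 RE: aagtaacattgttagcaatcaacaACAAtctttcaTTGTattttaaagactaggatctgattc
SIRPA RE: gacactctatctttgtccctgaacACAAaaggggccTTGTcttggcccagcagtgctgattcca
SLC6A19 RE: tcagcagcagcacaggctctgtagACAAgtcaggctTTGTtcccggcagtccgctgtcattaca
KATNIP RE: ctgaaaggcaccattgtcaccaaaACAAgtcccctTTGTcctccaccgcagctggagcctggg
TFAP2B RE: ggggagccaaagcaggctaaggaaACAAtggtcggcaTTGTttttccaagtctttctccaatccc
BMP2 RE: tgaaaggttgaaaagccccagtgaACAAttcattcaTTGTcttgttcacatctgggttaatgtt
AXIN2 RE: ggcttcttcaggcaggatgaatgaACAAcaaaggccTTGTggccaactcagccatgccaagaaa

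The pair of REs with the lowest fold changes among those named held single cores and no facing pair. Their windows, with the core in capitals, lie at chr7:99358241-99358294 near ARPC1A and chr2:111155758-111155811 near BCL2L11 (hg38, plus strand).
ARPC1A RE: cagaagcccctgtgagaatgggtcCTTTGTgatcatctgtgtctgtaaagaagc
BCL2L11 RE: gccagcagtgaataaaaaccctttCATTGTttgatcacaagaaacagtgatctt

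An RE is named here by the protein-coding gene with the nearest start site, which need not be the gene it acts on. Start sites of all annotated transcripts were used, so a promoter RE need not lie at the main start of its gene. The lowest fold change was at the ARPC1A RE (chr7:99358007-99358507), within the gene and 159 bp from an annotated transcript start. ARPC1A encodes a subunit of the actin-nucleating Arp2/3 complex. The main promoter of the gene was not examined. Its level at 0 nM ran from 1.81 to 11.0 CPM with a median of 6.73, and at 1.6 nM from 0.951 to 6.47 CPM with a median of 1.67. The groups overlapped because replicates differed in their starting level, yet all 7 replicates were lower at 1.6 nM. The log2 fold change was -1.39 ± 0.13 (SE, n = 7) with an edgeR adjusted p of 3.10e-07. An RE in an intron of BCL2L11, the gene of the pro-apoptotic protein BIM (chr2:111155530-111156030), ran from 1.73 to 2.46 CPM at 0 nM (median 2.25) and from 0.495 to 1.65 CPM at 1.6 nM (median 0.977). Here the groups did not overlap, and the log2 fold change was -1.08 ± 0.15 (SE, n = 7, edgeR adjusted p 6.04e-05). The intergenic AGPAT4 RE (chr6:161318397-161318897), 44336 bp from the start of a lysophosphatidic acid acyltransferase gene, ran from 3.05 to 6.39 CPM (median 4.53) at 0 nM and from 0.976 to 2.87 CPM (median 2.65) at 1.6 nM. Its groups did not overlap either, with a log2 fold change of -0.99 ± 0.13 (SE, n = 7, edgeR adjusted p 2.35e-05).

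Of the 10 REs with the lowest fold changes that fell in all 7 replicates, the others were at ITGB3, which encodes integrin beta 3, at USP54, TAF1B, PTPRT, DNAH14 and SIRPA, and at EDNRB, the endothelin receptor of neural crest derivatives. Their log2 fold changes lay between -0.93 and -0.83, and their groups overlapped. The TAF1B RE, in an intron of a gene of the RNA polymerase I machinery, fell from a median of 2.59 CPM (0.953 to 4.70) to 1.28 CPM (0.726 to 2.16). The EDNRB RE, 49483 bp from the start site at chr13:77853585-77854085, fell from a median of 2.33 CPM (1.39 to 3.86) to 1.19 CPM (1.06 to 2.199), a log2 fold change of -0.83 ± 0.12 (SE, n = 7, edgeR adjusted p 0.000152).

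The lowest p-values outside these 10 belonged to stronger REs with smaller fold changes, at SLC6A19 (chr5:1183102-1183882), KATNIP (chr16:27718715-27719215), SLC39A11 (chr17:72614974-72615769), YPEL2 (chr17:59355650-59356150) and PRMT2 (chr21:46622139-46623084). The SLC6A19 RE ran from 8.04 to 35.7 CPM at 0 nM (median 15.3) and from 5.65 to 23.1 CPM at 1.6 nM (median 8.65), with a log2 fold change of -0.69 ± 0.07 (SE, n = 7, edgeR adjusted p 2.05e-07). The KATNIP RE, within a gene for a katanin-interacting protein, ran from 10.1 to 34.3 CPM (median 17.0) at 0 nM and from 6.26 to 24.0 CPM (median 12.2) at 1.6 nM. All 5 were lower in all 7 replicates although the groups overlapped in each. All 5 also passed with batch in place of the replicate block, as did 13 of the 45 named lower REs.

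**Figure D2:**
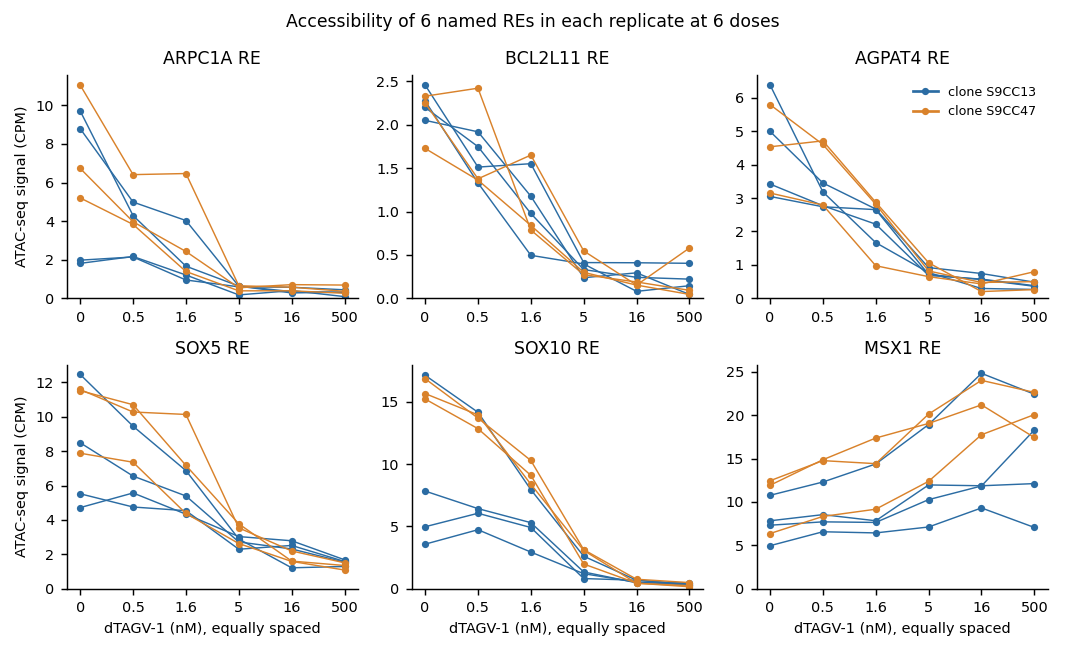
ATAC-seq signal in CPM (y axis, from 0) at 6 dTAGV-1 concentrations (x axis, equally spaced), 1 line per replicate, coloured by clone, for 6 named REs. The ARPC1A, BCL2L11 and AGPAT4 REs had median levels of 0.596, 0.331 and 0.771 CPM at 5 nM, and the MSX1 RE rose to a median of 18.3 CPM at 500 nM.

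The levels at the other doses place 1.6 nM early in the decline. Over the 1425 lower REs, the median level per replicate, as a percentage of the mean of each RE at 0 nM, was 97.7 ± 20.7% (SD, n = 7) at 0 nM and 72.5 ± 10.6% at 1.6 nM. At the neighbouring doses it was 87.1 ± 14.2% with 0.5 nM and 45.0 ± 5.06% with 5 nM, and it reached 29.1 ± 3.29% with 16 nM and 23.1 ± 2.32% with 500 nM. These values share the 0 nM samples that chose the REs, and the spread at 0 nM overlapped that at 1.6 nM. The median log2 fold changes of the same REs were -0.42 at 1.6 nM, against -0.14 with 0.5 nM, -1.09 with 5 nM and -2.06 with 500 nM. Across all REs, 0 were called at 0.5 nM, with 13787 at an unadjusted p under 0.05 by edgeR and 7892 by DESeq2, which also called 0. Called REs numbered 8697 lower (5.74%) and 4224 higher (2.79%) at 5 nM, and 25405 lower (16.8%) and 20997 higher (13.9%) at 500 nM. Between 1.6 nM and 0.5 nM directly, 897 REs were lower (0.592%) and 134 higher (0.0885%) at 1.6 nM.

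Among REs called in the same direction at 1.6 and 500 nM, the ratio of the log2 fold changes had a median of 20.8% in 1417 lower REs. It was over 50% in 43 of these. In 102 higher REs the median was 57.4%, and 62 were over 50%. Of these 102, 17 had a log2 fold change of at least 1 in size at 500 nM. Both fits share the 0 nM samples, and all these REs were chosen by their call at 1.6 nM. Among REs with a log2 fold change of at least 1 in size at 500 nM, the highest ratios of the 2 fold changes included those at UGT2B7, CD164 and GRID1, which fell, and PDE4D and SORCS1, which rose. The CD164 RE (chr6:109336087-109336587), 36282 bp from a sialomucin gene, ran from 1.104 to 2.36 CPM (median 1.73) at 0 nM, from 0.575 to 1.67 CPM (median 1.03) at 1.6 nM and had a median of 0.811 CPM at 500 nM. Its log2 fold changes were -0.74 at 1.6 nM and -1.26 at 500 nM. The GRID1 RE, in an intron of a glutamate receptor gene, had -0.60 and -1.03, and the PDE4D RE, in a cAMP phosphodiesterase gene, had 0.69 and 1.06. The REs named here were chosen for that ratio, and it is given as a description.

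The 3 h samples share no library with the dose series. Their vehicle samples were collected at 24 h, so treatment and collection time differ together and cannot be told apart. Of the 1425 REs lower at 1.6 nM, 1386 (97.3%) were also lower at 3 h of 500 nM, where 7.43% of all REs were, and 1 was higher, where 0.912% of all REs were. The median log2 fold change of these REs at 3 h was -1.92, and the per-replicate medians of log2(CPM + 0.5) differences were -1.73 and -1.44, against 0.07 and 0.05 over all REs. Of the 133 REs higher at 1.6 nM, 8 (6.02%) were higher and 1 lower at 3 h. Read the other way, 12.3% of the 11252 REs lower at 3 h were called lower at 1.6 nM. Over those 11252 REs the median difference at 1.6 nM was -0.14 ± 0.07 (SD, n = 7) on the log2(CPM + 0.5) scale, from -0.27 to -0.05, and negative in 7 of 7 replicates (exact sign-flip permutation test, two-sided, p = 0.0156, the smallest that 7 replicates allow).

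**Figure D3:**
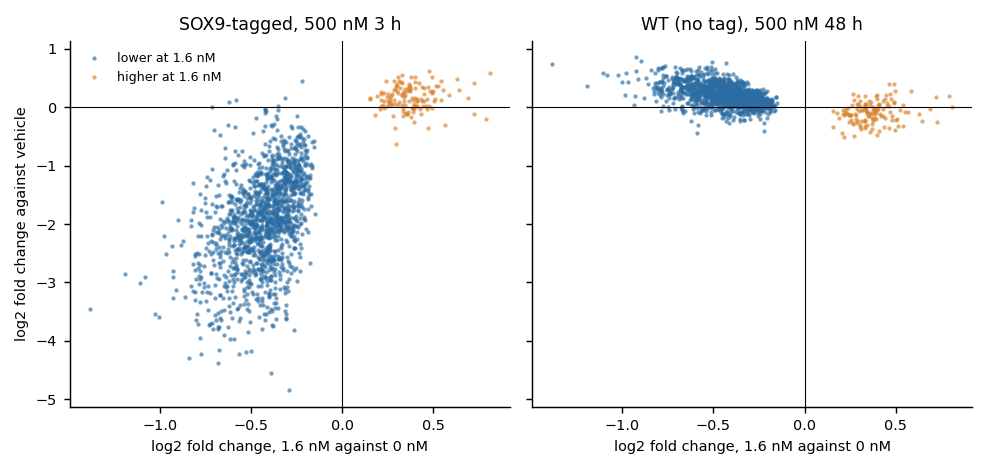
Log2 fold change in samples that did not choose the REs (y axis) against the log2 fold change at 1.6 nM (x axis), 1 point per called RE. At 3 h of 500 nM in SOX9-tagged cells 1419 of the 1425 lower REs lie below 0, and in untagged WT cells at 500 nM 138 do.

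WT cells, whose SOX9 carries no tag, were compared at 500 nM and 0 nM after 48 h. Of the 1425 REs lower at 1.6 nM in tagged cells, 94 (6.60%) were higher at 500 nM, where 0.158% of all REs were, and 1 was lower, where 0.145% of all REs were. Their median log2 fold change in WT cells was 0.20, against -0.01 over all REs, with per-replicate median differences of 0.25 and 0.12 on the log2(CPM + 0.5) scale. Among the named REs, the ARPC1A RE had a log2 fold change of 0.75 in WT cells (edgeR adjusted p 0.000765) and the TAF1B RE 0.85 (edgeR adjusted p 4.16e-05). DESeq2 called 0 REs in WT cells, with 1214 at an unadjusted p under 0.05. The cause of the WT difference was not tested.

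The response was also read by motif within REs chosen in other samples. The spacing of the facing pair had itself been chosen after looking at REs that fell at 3 h. Of the REs lower at 3 h, 1889 held a facing pair, and 361 of these (19.1%) were called lower at 1.6 nM. Of 7105 with a single core only, 821 (11.6%) were called, and of 2258 with neither, 204 (9.03%). The median difference at 1.6 nM was -0.18 ± 0.09 (SD, n = 7) with a facing pair and -0.13 ± 0.07 with a single core only, and the former was lower in 7 of 7 replicates. These groups also differed at 3 h, with median log2 fold changes of -1.45, -1.04 and -0.93. The pair was found in 15.5% of REs lower at 3 h but not called at 1.6 nM. Among REs of the commonest length alone it was found in 24.3% of the REs lower at 1.6 nM and 3.52% of all REs.

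**Figure D4:**
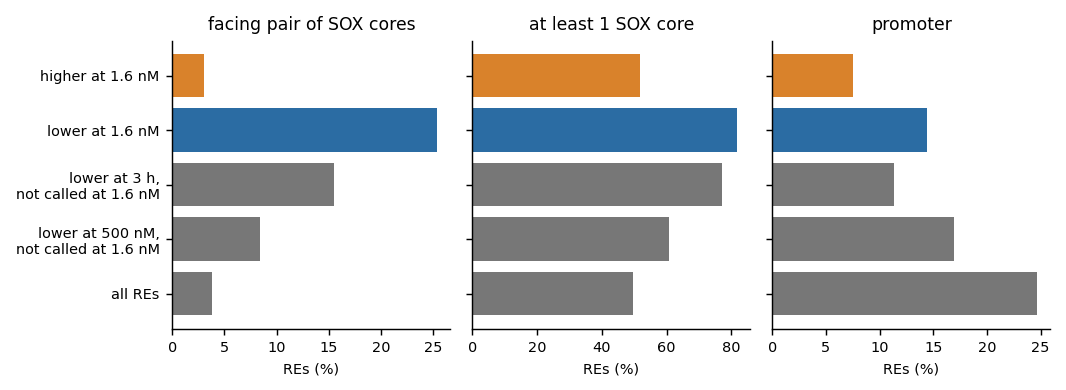
Share of REs in percent (x axes, from 0) that hold a facing pair of SOX cores, hold at least 1 single core, or lie within 1000 bp of a start site, in 5 sets of REs (y axis). The lower REs at 1.6 nM stand at 25.4%, 81.8% and 14.5%, and all REs at 3.84%, 49.6% and 24.7%.

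The lower REs lay mostly away from start sites. Promoter REs, within 1000 bp of any start site, were 14.5% of them, 7.52% of the higher REs and 24.7% of all REs. In REs lower at 3 h but not called at 1.6 nM the promoter share was 11.3%. The median level of the lower REs at 0 nM was 6.34 CPM, against 2.44 CPM over all REs. Nearest genes numbered 1175, of which 982 had 1 lower RE and 8 had at least 4. SLC39A11, a zinc transporter gene, had the most, 9 of its 52 REs. They lay between positions 72560887 and 73043507 of chromosome 17, at higher coordinates than SOX9, with log2 fold changes from -0.73 to -0.23. RAD51B, a homologous recombination gene, had 6 of 63, and SOX5, MYCN, HAS2, ITPK1, SEMA6A and SPATS2L had 4 each.

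SOX9 acts in chondrocytes with its partners SOX5 and SOX6 on the collagen genes COL2A1, COL9A2 and COL9A3. Of 372 REs nearest the 24 cartilage genes, 19 fell (5.11%, against 0.941% of all REs) and 2 rose (0.538%), and the lower REs belonged to 12 genes. This list and the other gene lists were chosen with earlier results of these data known, so their shares are a description only. The median log2 fold change over all 372 was -0.02, against -0.00247 over all REs. SOX5 had 4 lower REs of 63, and SOX6, COL9A2, UCMA and WWP2 had 2 each of 81, 2, 2 and 15. COL2A1, COL9A3, ACAN, MATN4, SNORC, CNMD and SCRG1 had 1 each.

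At WWP2, whose introns host the cartilage microRNA miR-140, the lower RE with the lowest p lay 654 bp from an annotated transcript start (chr16:69799700-69800200). It ran from 1.17 to 5.34 CPM (median 3.03) at 0 nM and from 1.18 to 2.64 CPM (median 1.32) at 1.6 nM. It was lower in 6 of 7 replicates, with a log2 fold change of -0.93 ± 0.14 (SE, n = 7, edgeR adjusted p 0.000220). The SOX5 RE, in an intron at chr12:23771165-23771665, ran from 4.71 to 12.5 CPM (median 8.49) at 0 nM and from 4.33 to 10.1 CPM (median 5.39) at 1.6 nM, a log2 fold change of -0.54 ± 0.08 (SE, n = 7, edgeR adjusted p 0.000223). The COL9A2 and COL2A1 REs were more accessible than these and moved less. The COL9A2 RE (chr1:40315132-40315632), over an annotated transcript start, ran from 39.1 to 48.2 CPM (median 41.9) at 0 nM and from 33.5 to 41.4 CPM (median 36.4) at 1.6 nM. Its log2 fold change was -0.21 ± 0.04 (SE, n = 7, edgeR adjusted p 0.00578). The COL2A1 RE, in an intron of the type II collagen gene, had -0.19 ± 0.05 (SE, n = 7, edgeR adjusted p 0.0301) and was lower in 6 of 7 replicates.

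Of the 69 REs with SOX9 as the nearest gene, none was lower. REs assigned to other genes, which may also act on SOX9, are not counted here. The RE over the SOX9 start site (chr17:72119993-72121187) ran from 37.7 to 52.4 CPM at 0 nM (median 43.7) and from 35.6 to 50.8 CPM at 1.6 nM (median 45.8), with a log2 fold change of 0.01 ± 0.04 (SE, n = 7, edgeR adjusted p 0.984). It was lower in 4 of 7 replicates. Both cartilage-list REs that rose were far from that start site. One, 561317 bp away at chr17:71558856-71559703, ran from 15.1 to 21.3 CPM (median 17.4) at 0 nM and from 17.0 to 25.0 CPM (median 20.0) at 1.6 nM, a log2 fold change of 0.21 ± 0.05 (SE, n = 7, edgeR adjusted p 0.0210). The other, 253432 bp away, was chosen after its values were seen and had 0.23 ± 0.06 (SE, n = 7, edgeR adjusted p 0.0351). It ran from 10.2 to 23.4 CPM (median 14.8) at 0 nM and from 13.1 to 30.1 CPM (median 14.4) at 1.6 nM. Its groups thus overlapped and its median did not rise.

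**Figure D5:**
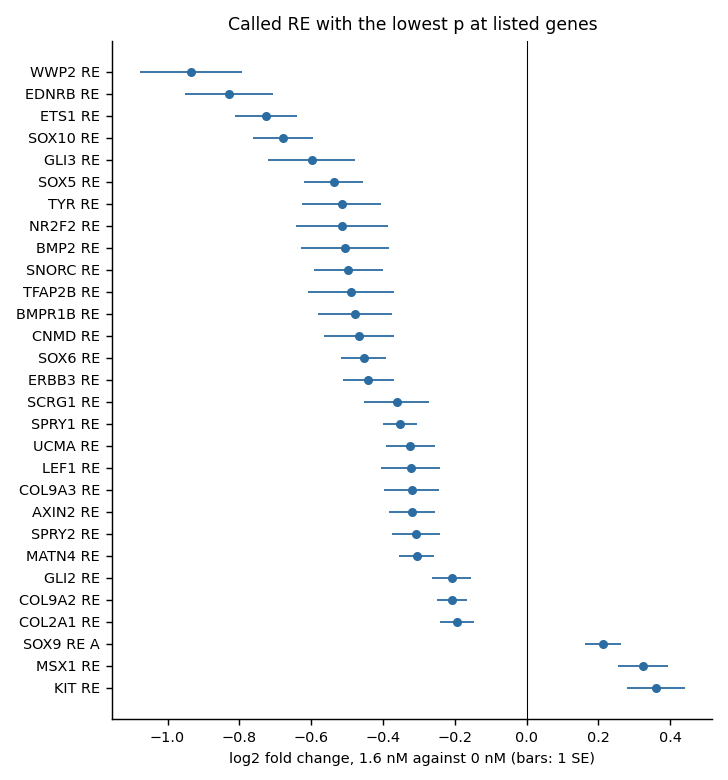
Log2 fold change at 1.6 nM against 0 nM (x axis, bars 1 SE) of the called RE with the lowest p at genes of the 5 lists (y axis). Of the 29 REs drawn, 26 lie below 0, and the SOX9, MSX1 and KIT REs lie above. They were chosen from called REs.

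Glial and melanocyte genes, fates that the neural crest also gives rise to, had 7 lower (4.09%) and 1 higher (0.585%) of 171 REs. The SOX10 RE (chr22:37967856-37968356), in an untranslated region of POLR2F near the gene of a related SOX factor, ran from 3.57 to 17.1 CPM (median 15.2) at 0 nM and from 2.93 to 10.3 CPM (median 7.95) at 1.6 nM, a log2 fold change of -0.68 ± 0.08 (SE, n = 7, edgeR adjusted p 1.28e-05). The RE at ERBB3, a neuregulin receptor gene, had -0.44 ± 0.07 (SE, n = 7, edgeR adjusted p 0.000388). Promoter REs of the melanocyte markers (1 of 3 had one, MITF) summed to between 25.1 and 38.0 CPM at 0 nM and between 19.3 and 34.0 CPM at 1.6 nM, and none was called. The glial marker list is not reported here, so these sums cover melanocytes only. In bulk samples, fewer cells of a type and less accessibility per cell cannot be told apart.

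The other lists lay near the background. CNCC transcription factor genes had 6 lower (0.798%) and 1 higher (0.133%) of 752 REs, at ETS1 (3), NR2F2 (2), TFAP2B (1) and MSX1 (1 higher). The TFAP2B RE lay 528023 bp from that start site, and the NR2F2 RE with the lowest p lay 104355 bp away. The ETS1 RE, in an intron at chr11:128552879-128553379, ran from 6.25 to 18.1 CPM (median 14.6) at 0 nM and from 5.04 to 12.95 CPM (median 7.50) at 1.6 nM, a log2 fold change of -0.73 ± 0.09 (SE, n = 7, edgeR adjusted p 7.77e-06). The MSX1 RE (chr4:4704103-4704603), 155062 bp from a homeobox gene of the jaw, ran from 4.94 to 12.4 CPM (median 7.82) at 0 nM and from 6.42 to 17.4 CPM (median 9.15) at 1.6 nM, a log2 fold change of 0.32 ± 0.07 (SE, n = 7, edgeR adjusted p 0.0109). Signalling genes had 9 lower (0.874%) and 2 higher (0.194%) of 1030 REs, including REs at the Hedgehog effectors GLI2 and GLI3 and the WNT target AXIN2. Pierre Robin and jaw disorder genes had 2 lower (1.16%) and 0 higher of 172 REs, at BMP2 and COL2A1. The BMP2 RE lay 207535 bp from that start site.

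The 133 REs that rose had a median level of 4.01 CPM at 0 nM. The 6 with the highest fold changes that rose in all 7 replicates were weaker, at MDFIC2, ENPEP, SUSD1, TRIQK, CDH26 and RNF213, with median levels of at most 2.34 CPM at 0 nM. The MDFIC2 RE (chr3:70127160-70127660), 184978 bp from that start site, ran from 0.355 to 1.46 CPM (median 0.817) at 0 nM and from 0.501 to 2.09 CPM (median 1.77) at 1.6 nM, a log2 fold change of 0.72 ± 0.15 (SE, n = 7, edgeR adjusted p 0.00969). The RNF213 RE, 26 bp from an annotated transcript start, ran from 1.31 to 3.24 CPM (median 2.34) and from 2.03 to 4.74 CPM (median 3.22). Its log2 fold change was 0.54 ± 0.11 (SE, n = 7, edgeR adjusted p 0.00519). None of these 6 passed at 3 h or with batch in place of the replicate block, and their groups overlapped.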

How the data were processed

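The deposited table holds raw counts of reads per RE and sample, which the authors made by trimming adapters, aligning to hg38 with Bowtie2 2.4.1, removing duplicates, mitochondrial and poorly mapped reads with SAMtools 1.10, calling summits with MACS2 2.2.7.1 and merging them into a single set of REs counted in every sample. REs without reproducible peaks were not counted, which favours sites open in several differentiations. Groups followed the sample titles. For S9CC13_R14 the concentration labels of the 0 and 0.5 nM samples are crossed against their titles, which were followed. Columns of the R5 time course name another clone than their titles, and clone was not used there.

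Counts were compared with edgeR 4.0.16 in R 4.3.3 (TMM, trended dispersion, quasi-likelihood F test, no filter, Benjamini-Hochberg over 151457 REs, threshold 0.05) with replicate as block. The study's methods use DESeq2 with batch as covariate, which was run as an alternative (DESeq2 1.42.0). Titles give 1 clone and differentiation the same name at every dose. Samples of 1 replicate deviated together (correlation at least 0.751 over 87076 REs, against -0.13 for other pairs). All 91 pairs of the 14 samples differed by more than counting noise, with a reduced chi-square of at least 1.91. The fit was tested on simulated data that held no replicate effect, so that run did not test the replicate block. Standard errors derive from the F statistic. Genes, exons and start sites came from the GENCODE annotation of hg38.

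Named REs needed a mean count of at least 50 and an adjusted p under 0.05: the 10 lowest fold changes lower in all 7 replicates, the 5 lowest p-values beyond these, the 6 highest fold changes higher in all 7, the 6 highest ratios to the 500 nM fold change, the RE with the lowest p at each gene of the 5 lists, and, whatever its p, the RE over the SOX9 start site. Some named REs and 1 marker list are not reported here. Members and lists were chosen with earlier results of these data known.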

Additional observations from a re-analysis of the deposited data

Results flagged for a closer look

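In 3 of the 114 groups of 7 samples examined (57 named REs at 2 doses), a single sample stood apart by Dixon's criterion, which chance alone meets in about 1 in 20 groups. All 3 were at 1.6 nM and in replicate S9CC47_R6, and each was the highest of its group. The PTPRT RE stood at 3.54 CPM there, with the next sample at 1.72 CPM. The EDNRB RE stood at 2.199 CPM, with the next at 1.43 CPM. The WWP2 RE stood at 2.64 CPM, with the next at 1.45 CPM. All 3 REs were called lower at 1.6 nM. The cause was not tested.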

How the results depend on the processing

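The counts at 1.6 nM (1425 lower, 133 higher) depended on the replicate block. Without a block or covariate 0 and 0 were called (1683 REs at an unadjusted p under 0.05), with batch as covariate 58 and 0, and with DESeq2 and batch 353 and 5. With the replicate block, DESeq2 called 834 and 44, a fit of all 42 dose samples 196 and 13, total-count scaling 1391 and 211, and a GC correction 2094 and 404. The lower share of calls was 91.5%, and 83.8% with the GC correction. Chosen after seeing the data, clone S9CC13 alone gave 413 and 12, and S9CC47 alone 123 and 0. Leaving out a replicate gave 440 to 1821 lower and 18 to 177 higher: 440 and 18 without S9CC13_R6, 654 and 42 without S9CC47_R8, 933 and 45 without S9CC47_R6, and 941 and 71 without S9CC13_R10. With the 0 and 0.5 nM samples of S9CC13_R14 exchanged, as their concentration labels have them, 1548 lower and 97 higher REs were called, among them 1277 of the 1425 and 63 of the 133, and 7 named REs lost their call. Of REs changed between 1.6 and 0.5 nM (1031), DESeq2 called 225 and the fit without replicate block 0. Without it, 0 were called at 3 h, 2145 at 5 nM, 15104 at 500 nM and 0 in WT cells, where DESeq2 also called 0. The median change over REs lower at 3 h ran from -0.15 to -0.11 without single replicates. The uncalled RE over the SOX9 start site turned to -0.0394 in S9CC47 alone, and ran from -0.0156 to 0.0359 without single replicates, below 0 without S9CC13_R13, S9CC13_R6 or S9CC47_R8. No other named RE changed sign under any alternative run. Of the 57 named REs, 43 kept their side of the threshold with DESeq2 and the replicate block, 28 with DESeq2 and batch, and 14 with edgeR and batch. Counting REs within 100000 bp of a gene moved no list's lower count by over 1.5 times, but the genes with calls changed. NR2F2, TFAP2B and BMP2 then had no lower RE, and SOX9, MSX1 and KIT no higher RE. Others, such as MATN1 and DLX1, had lower REs only in that count. Higher REs went from 2 to 0 in the cartilage list, from 1 to 0 in the glial and melanocyte list and from 2 to 1 in the signalling list. The low-count filter kept all REs in the 1.6 nM fit and changed no call there. Intervals from counts were not used.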
